A study of Mus musculus with 8 samples.

Results

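The genes described here encode the proteasome and the enzymes that attach ubiquitin to proteins and remove it. They were taken by name from a liver array of mice with a Gpx3 transgene. A probe was included where its identifier carries the NCBI Gene ID of a mouse gene whose symbol begins with Psma, Psmb, Psmc, Psmd, Psme, Ube2, Ube3, Usp followed by a digit, or Uch. The rule used no measured value. It found 92 of 24048 probes, for 69 of 7409 named genes. They comprise 4 alpha-ring and 5 beta-ring genes of the proteasome core, and 3 ATPase and 5 non-ATPase genes counted with its cap. The others are 4 genes named for proteasome activators, 22 Ube2 genes, 23 Usp genes and 3 Uch genes. Groups follow gene names, so the assembly chaperone Psmd9 enters every count of cap genes. No probe carried the number of a Ube3 gene. Coverage of each family was partial, with a probe for 4 of 8 protein-coding Psma genes in the RefSeq table, 5 of 11 Psmb, 3 of 7 Psmc, 5 of 14 Psmd, 4 of 6 Psme, 22 of 37 Ube2, 23 of 56 Usp and 3 of 4 Uch genes.

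Total RNA from the livers of 8 male mice was hybridised to 1 array per animal, a 1-colour Illumina bead array. Of the mice, 4 were labelled Gpx3 transgenic and 4 B6/DBA wildtype, and all were 23 weeks old. Both groups ate chow with 4% fat to 11 weeks of age and with 6% fat from then on. Gpx3 encodes a secreted glutathione peroxidase. No probe identifier carried its Gene ID, so the labels were not checked against the transgene. The promoter of the transgene, the number of founder lines and the litters are not stated in the sources used here. The sample titles of the wildtype animals have a common stem that no transgenic animal has, and transgenic animal 4 has a stem different from that of transgenic animals 1 to 3. Whatever the stems mark cannot be told apart from genotype. Hepatocyte genes with a probe, Apoa1, Serpina1a, Ass1 and Pck1, summed to 64103 to 71687 intensity units in transgenic and 58837 to 63493 units in wildtype livers. The 4 genes did not move alike. Mean Ass1 signal was 20561 units in transgenic and 16123 in wildtype livers. The log2 fold changes were 0.34 for Ass1 and 0.67 for Pck1 (limma unadjusted p = 0.0304 and 0.0253, adjusted p = 0.690 and 0.667). They were 0.02 for Apoa1 and -0.05 for Serpina1a. In whole liver RNA, fewer cells of a type and less RNA per cell cannot be told apart.

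Ubiquitin is a small protein that is activated by one enzyme, passed to a conjugating enzyme and joined to a target with the help of a ligase. Chains of ubiquitin send many targets to the proteasome, a barrel of alpha and beta rings that cuts proteins inside, closed by a cap whose ATPases unfold the target and thread it in. Deubiquitinases take ubiquitin off again, either to rescue the target or to recycle ubiquitin. Interferon-gamma exchanges the catalytic beta subunits for immune versions and raises the PA28 activator. The liver is an organ of high protein turnover, and hepatocytes depend on this system to remove damaged proteins.

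Proteasome subunits assemble in fixed proportions, and in mammals the transcription factors Nfe2l1 and Nfe2l2 are known to act on antioxidant-type elements near several of their genes. The RefSeq promoter table (build GRCm38.p6) held 15 of the 17 core and cap genes, with 250 bases before each start searched on both strands. The letters TGACNNNGC, the core of that element, occurred in 4 of the 15 (26.7%) and in 3112 of 27025 genes of the table (11.5%). The letters CCAAT occurred in 4 of 15 (26.7%) and in 10133 of 27025 (37.5%). The matches to TGACNNNGC were in Psmb5, Psmb6, Psmd9 and Psmc6. Stretches of 80 bases around 3 of them follow, 5′ to 3′ on the strand of the gene, to show where the letters lie, with the match in capitals. The match of Psmb6, 9 bases before the start in the table, lies inside the annotated span of that gene and its stretch is left out. A match is a description of the letters and not a bound site.
Psmb5, chr14:54617999-54618078, minus strand, match 47 bases before the start: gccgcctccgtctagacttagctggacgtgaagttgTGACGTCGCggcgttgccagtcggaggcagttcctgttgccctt
Psmd9, chr5:123228110-123228189, plus strand, match 31 bases before the start: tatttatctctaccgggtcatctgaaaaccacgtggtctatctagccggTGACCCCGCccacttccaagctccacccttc
Psmc6, chr14:45329574-45329653, plus strand, match on the opposite strand 227 bases before the start: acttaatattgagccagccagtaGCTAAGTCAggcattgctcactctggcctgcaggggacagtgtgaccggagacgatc

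Values are the deposited intensities in linear units, already background-subtracted. Median signal was 11.0 to 14.2 units per array, and 51.5% to 55.0% of the probes of an array read 16 units or less. Values under 16 were set to that floor before taking log2. A probe was tested where at least 1 array lay above 16, which held for 14759 probes and for 62 of the 92 ubiquitin and proteasome probes, covering 52 genes. The other 30 probes stood at or below 16 on all 8 arrays. They were the only probes of 17 genes, among them Psma5 of the alpha ring, the cap ATPase Psmc6, the cell-cycle Ube2c, the DNA-repair Ube2b, Uchl3, Uchl4 and 9 Usp genes (Usp12, Usp13, Usp15, Usp17lb, Usp17lc, Usp33, Usp46, Usp53 and the Y-linked Usp9y). A dark probe does not show that its transcript is absent. Of the 62 tested probes 45, for 41 genes, lay above 16 on all 8 arrays, and the other 17 had arrays at the floor. Fold changes are transgenic over wildtype. A log2 fold change of a probe near the floor depends on where the floor is set and can understate the difference.

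Across the whole set, the median difference between transgenic and wildtype livers was close to 0, while single genes were measured with unequal precision. With 1 probe per gene, the brightest, 18 of the 52 tested genes had a higher mean log2 signal in transgenic livers and 34 a lower one. Their median log2 fold change was -0.04, beside -0.02 over all 14759 tested probes, of which 53.3% were lower. In limma 0 of the 62 probes passed the adjusted threshold of 0.05, and their lowest adjusted p was 0.582. The background was also 0 of 14759 probes (0.0%), with a smallest adjusted p of 0.0550. Before adjustment, 3 probes passed 0.05, with 2 higher and 1 lower, which is 4.84% of the 62, against 1006 of all probes (6.82%), with 3.23% higher and 3.59% lower. With trend and robust variance in limma the set still had 0 adjusted and 3 unadjusted calls. The groups did not overlap at 3 of the 62 probes, against a background of 526 probes (3.56%). These were a pair of Usp1 probes and the Usp20 probe. Leaving out wildtype animal 3 raised the unadjusted calls to 7 by adding Psme2, Usp36, Psma4 and Psmb3, again with 0 adjusted calls. Over all probes the unadjusted calls rose as well without that animal, to 1296 (8.78%).

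**Figure D1:**
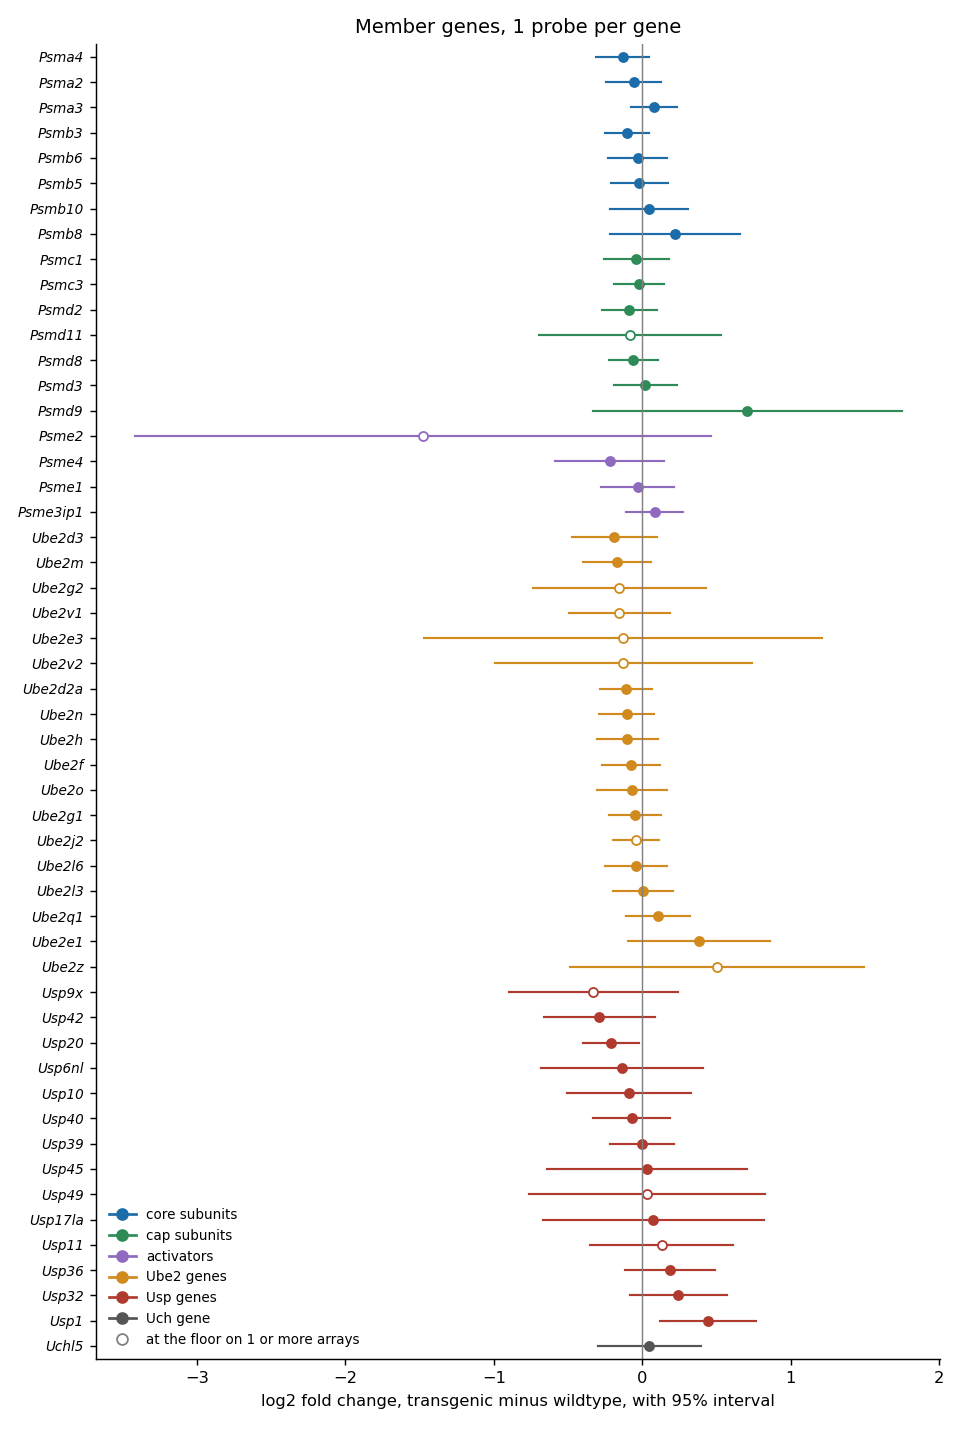
Log2 fold change (transgenic minus wildtype, horizontal axis) with its 95% interval from limma for the 52 tested genes, 1 probe per gene, ordered by group; open circles mark genes with 1 or more arrays at the floor. Core and cap genes sit close to 0 with short intervals, apart from Psmb8, Psmd9 and Psmd11, while Psme2, Psmd9 and several dim Ube2 and Usp genes have wide ones.

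In the alpha ring of the core, which gates entry to the barrel, 3 of the 4 genes with a probe were bright in all 8 livers and differed little by genotype, while Psma5 was at or below 16 units throughout. Psma2 read 6937, 5968, 5966 and 6249 units in transgenic animals 1 to 4 and 7006, 6220, 6226 and 6695 units in wildtype animals 1 to 4. The 2 highest values came from animal 1 of each group, and the groups overlapped (log2 fold change -0.06 ± 0.08 SE, limma adjusted p = 0.836). Psma3 was 0.08 ± 0.07 higher on the log2 scale (adjusted p = 0.809), with 4875 to 5431 units in transgenic and 4690 to 5143 units in wildtype livers. Its second probe lay below the floor on all arrays. Psma4 read 2644, 2834, 2600 and 2817 units in transgenic livers and 3198, 3045, 2696 and 3014 units in wildtype livers. Only wildtype animal 3 fell within the transgenic range. The Psma4 means were 2724 ± 119 and 2988 ± 211 units (SD, n = 4 each), a fold of 0.913 with a 95% interval of 0.807 to 1.03 and an adjusted p of 0.781 in limma. Without wildtype animal 3 its log2 fold change was -0.18 and its unadjusted p 0.0276 (limma adjusted p = 0.543). Of 18 alternatives, only this 1 gave Psma4 an unadjusted limma p under 0.05.

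Among beta-ring genes, the structural subunit Psmb3 showed the same ordering as Psma4. Psmb3 read 4329, 4469, 4269 and 4343 units in transgenic livers and 4850, 4800, 4336 and 4709 units in wildtype livers. Wildtype animal 3 was again the only one within the transgenic range. Its fold was 0.932 (95% interval 0.840 to 1.03, limma adjusted p = 0.794), and the exact two-sided permutation p over animals was 0.0857, as for Psma4. The smallest p that 4 against 4 animals can give is 0.0286. Psmb3 passed an unadjusted p of 0.05 without wildtype animal 3, with a floor of 32 units and with no filter, and its adjusted p was at least 0.554 under all 18 alternatives.

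The catalytic subunits of the standard proteasome overlapped between the groups. Psmb5, the chymotrypsin-like subunit, read 1690, 1506, 1548 and 1368 units in transgenic and 1604, 1446, 1585 and 1551 units in wildtype livers (log2 fold change -0.02 ± 0.08 SE, limma adjusted p = 0.947). Psmb6, the caspase-like subunit, read 5588, 4821, 4921 and 4912 units against 5382, 4646, 5103 and 5545 units. Transgenic animal 1 stood above the other 3 transgenic animals, and the log2 fold change was -0.03 ± 0.09 (SE, limma adjusted p = 0.925). Both signs were positive, at 0.01, after quantile normalization. Psmb7, the trypsin-like subunit, had no named probe.

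**Figure D2:**
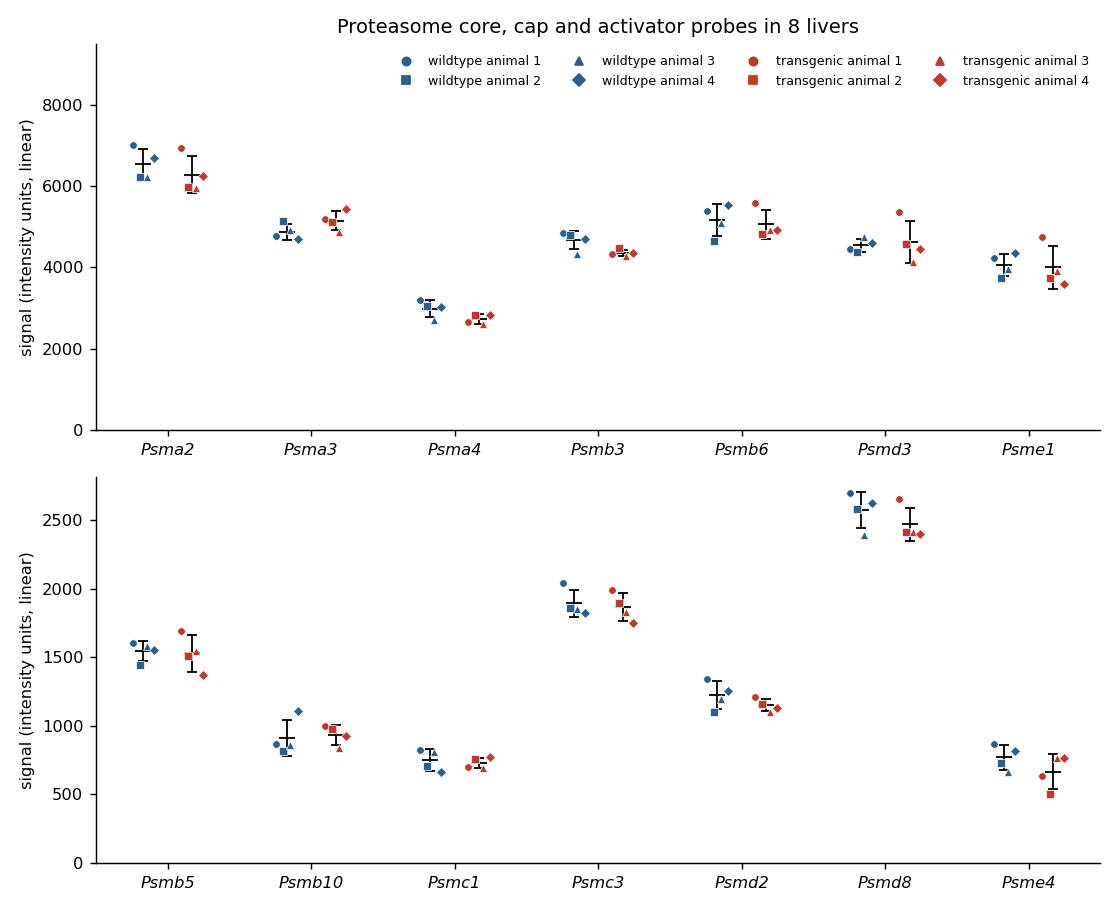
Signal in linear intensity units (vertical axis, from 0) of core, cap and activator probes in each of 8 livers, with black bars for the mean ± SD of 4 animals. Wildtype and transgenic points overlap for each gene shown, and for Psma4 and Psmb3 only wildtype animal 3 lies within the transgenic range.

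The immune versions of the catalytic subunits replace the standard ones in cells that meet interferon. Psmb8, which replaces Psmb5, read 78.7, 107.6, 132.4 and 74.4 units in transgenic livers and 88.1, 83.3, 72.6 and 85.0 units in wildtype livers. Transgenic animals 2 and 3 lay above all others, while transgenic animals 1 and 4 lay within the wildtype range. The means were 98.3 ± 27.1 and 82.3 ± 6.73 units (SD, n = 4 each), for a log2 fold change of 0.22 ± 0.19 (SE) and an adjusted p of 0.809 in limma. Psmb10, which replaces Psmb7, had 837 to 999 units in transgenic and 815 to 1105 units in wildtype livers (log2 fold change 0.04 ± 0.11 SE, adjusted p = 0.917). Its highest value was that of wildtype animal 4. Psmb9, the partner of Psmb6, had no named probe. The probe of Ube2l6, which conjugates the interferon-induced modifier Isg15, differed by -0.04 ± 0.09 (SE) on the log2 scale.

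Of 16 listed interferon-responsive genes 10 had a probe and 8 were tested, 6 with a higher and 2 with a lower mean log2 signal in transgenic livers (median 0.15). Their summed signal was 2074 to 2517 units in transgenic and 1791 to 2313 units in wildtype livers, and Ifit3 and Mx1 were at the floor on all arrays. Of the list, Irf1, a transcription factor that acts on Psmb8 and Psmb9 in mice and humans, was 566 ± 60.1 units against 435 ± 49.1 (SD, n = 4 each) without overlap (limma unadjusted p = 0.0100, adjusted p = 0.606). Of lymphocyte and MHC class II genes, 3 were tested with summed signals of 797 to 1250 and 877 to 1361 units, and Ptprc, the pan-leukocyte marker, was at the floor on all arrays. The 5 macrophage and Kupffer cell genes summed to 543 to 964 and 555 to 962 units. A pair of erythroid genes was lower in transgenic livers at an unadjusted p under 0.05 (summed signal 9105 to 10339 against 10864 to 23811 units), and 3 endothelial genes, all with lower means in transgenic livers, summed to 216 to 370 against 336 to 477 units. Of 4 tested stellate cell genes 3 had lower means (median log2 fold change -0.21, summed signal 5853 to 6369 against 6138 to 6759 units), and Acta2, Col1a1 and Col3a1 were at the floor on all arrays. Among them Lrat, which stores retinol as esters, was 277 ± 49.4 against 378 ± 14.8 units (SD, n = 4 each) without overlap (limma unadjusted p = 0.00767, adjusted p = 0.592). The part of these genes in the Psmb8 values and in the other values given here was not tested.

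The bright cap genes also lay close to their wildtype levels. The ATPases Psmc1 and Psmc3, which bind and unfold substrates, had log2 fold changes of -0.04 ± 0.09 and -0.02 ± 0.07 (SE). Psmc1 ranged from 691 to 770 units in transgenic and from 663 to 826 units in wildtype livers, and Psmc3 from 1752 to 1993 and from 1822 to 2039 units. The groups overlapped for both genes, and the transgenic Psmc1 values lay inside the wildtype range. Psmd2, a cap scaffold that docks ubiquitin carriers, had 1103 to 1208 units against 1100 to 1343 units (-0.09 ± 0.08 SE). Psmd3 of the cap lid had 4126 to 5364 units against 4370 to 4753 units (0.02 ± 0.09 SE), with both the highest and the lowest value in transgenic livers. Psmd8, also of the lid, had 2399 to 2652 against 2390 to 2696 units (-0.06 ± 0.07 SE). Psmd11, a lid scaffold, was read only by a pair of dim probes that reached at most 30.8 and 23.6 units.

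The widest cap difference was in Psmd9, a chaperone that helps assemble the ATPase ring and is not a subunit of the finished cap. Psmd9 read 38.5, 96.6, 86.4 and 64.3 units in transgenic livers and 30.5, 21.8, 60.2 and 72.3 units in wildtype livers. Transgenic animals 2 and 3 were above every wildtype animal, but transgenic animal 1 was below wildtype animals 3 and 4. The means were 71.5 ± 25.8 and 46.2 ± 23.9 units (SD, n = 4 each), and the 95% interval of the log2 fold change of 0.71 ran from -0.33 to 1.75 (limma adjusted p = 0.791).

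Core and cap genes with a mean over 500 units allowed the narrowest statement. For these 12 genes log2 fold changes ran from -0.13 to 0.08 with a median of -0.03, and the 95% intervals of the folds lay between 0.807 and 1.24. The same median over all 2894 tested probes over 500 units was -0.03, of which 58.4% were lower in transgenic livers. Within a group, the log2 signal of the 12 genes had a median SD of 0.09 between animals, beside 0.12 for all probes of that brightness. Among all 15 tested core and cap genes, 5 were higher and 10 lower, and 12 had an interval inside 0.5 on the log2 scale either way.

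The activators dock on the ends of the core in place of the cap. Psme1, the alpha subunit of PA28, was read by a pair of bright probes. The brighter one gave 4761, 3741, 3917 and 3588 units in transgenic and 4227, 3738, 3949 and 4346 units in wildtype livers (log2 fold change -0.03 ± 0.11 SE, limma adjusted p = 0.938), and the other gave 0.05 ± 0.10. Transgenic animal 1 was highest in both, and the order of animals within each group was the same. Psme4, the nuclear activator PA200, had 501 to 769 against 665 to 870 units (-0.22 ± 0.16 SE, adjusted p = 0.809). Psme3ip1, which is named for its binding to the nuclear activator Psme3 and is not an activator itself, differed by 0.08 ± 0.08 (SE). Psme3 had no named probe.

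Psme2, the beta subunit of PA28, varied more than nearly any other tested probe. It read -1.9, 9.6, 6.5 and 68.7 units in transgenic livers and 118.7, 199.1, 17.5 and 41.1 units in wildtype livers. Transgenic animals 1 to 3 were at the floor, no wildtype animal was, and transgenic animal 4 stood between wildtype animals 4 and 1. The within-group SD of its log2 signal was 1.34, at the 99.7th percentile of tested probes. The means were 20.7 ± 32.4 and 94.1 ± 82.3 units (SD, n = 4 each), and the fitted log2 fold change of -1.48 ± 0.84 (SE) depends on the floor (limma adjusted p = 0.781). It was -0.68 after normexp correction, with an unadjusted p of 0.0353, and -2.10 without wildtype animal 3, with an unadjusted p of 0.0287 (limma adjusted p = 0.733 and 0.545). Only these 2 of 16 alternatives gave an unadjusted limma p under 0.05. Without wildtype animal 2 the log2 fold change was -0.93, with an unadjusted limma p of 0.301. The 3 transgenic animals at the floor are those that share a title stem.

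**Figure D3:**
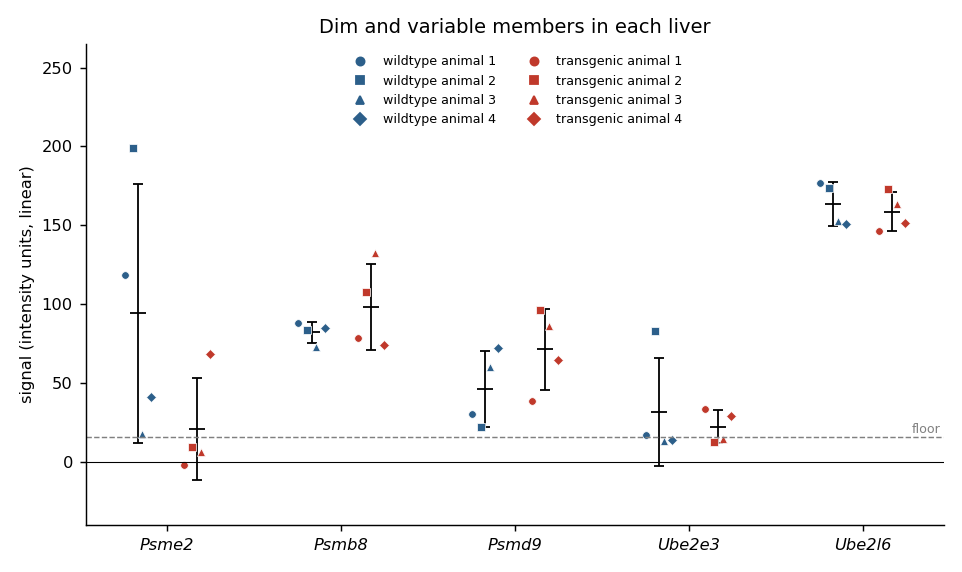
Signal in linear intensity units (vertical axis) of Psme2, Psmb8, Psmd9, Ube2e3 and Ube2l6 in each of 8 livers, with black bars for the mean ± SD of 4 animals and a dashed line at the floor of 16 units. Psme2 and Ube2e3 have single animals far above the others, and Ube2l6 lies between 146.5 and 176.7 units in all 8 livers.

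Conjugating enzymes were the largest tested group, with 18 of 22 genes. None of their 21 probes passed an unadjusted p of 0.05, against 6.82% of all tested probes. By gene 4 lay higher and 14 lower in transgenic livers, at a median log2 fold change of -0.09. Of all tested probes 53.3% were lower, with a median of -0.02. Only 12 of the 18 genes lay above 16 units on all 8 arrays. The median of the conjugating enzymes moved between -0.10 and -0.05 as single animals were left out. After quantile normalization it was -0.06, beside 0.01 over all tested probes. Ube2l3, which serves HECT and RBR ligases and was the brightest, read 2254, 1830, 1957 and 1985 units in transgenic and 1913, 1958, 1925 and 2177 units in wildtype livers. The highest and the lowest liver were both transgenic, and the log2 fold change was 0.01 ± 0.09 (SE, limma adjusted p = 0.982).

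Ube2m, which conjugates the ubiquitin-like Nedd8 to cullins, read 599.0, 493.6, 528.9 and 472.6 units in transgenic and 633.8, 568.9, 534.1 and 612.2 units in wildtype livers. Transgenic animals 2 to 4 lay below all wildtype animals, and transgenic animal 1 lay among them (log2 fold change -0.17 ± 0.10 SE, limma adjusted p = 0.781). Without transgenic animal 1 its unadjusted p was 0.0225 (limma adjusted p = 0.561), the only 1 of 18 alternatives under 0.05. Ube2f, the other Nedd8-conjugating enzyme, had 554 to 664 against 585 to 672 units (-0.08 ± 0.09 SE). Ube2e1 was the gene with the smallest p of the group, at 51.8, 32.6, 47.5 and 56.5 units against 38.8, 44.5, 31.8 and 28.8 units. Its log2 fold change was 0.38 ± 0.21 (SE, limma adjusted p = 0.781) at that probe and -0.08 ± 0.40 at a dimmer one, so its probes differed in sign.

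Other conjugating enzymes of several kinds did not pass either, with a wider error at the dim Ube2e3 probe than at the bright ones. The broadly acting Ube2d2a, which has a near-identical family copy, differed by -0.11 ± 0.08 (SE) and -0.07 ± 0.12 at its pair of probes. Ube2g1, which acts in the removal of misfolded proteins from the endoplasmic reticulum, differed by -0.05 and -0.03. Ube2n, which builds chains linked through lysine 63 with Ube2v1 or Ube2v2, had 183 to 207 against 191 to 228 units (-0.10 ± 0.08 SE). Ube2v1 was at the floor in all 4 transgenic animals and above it only in wildtype animal 2. Ube2e3 read 33.6, 12.6, 14.5 and 28.9 units against 16.8, 82.8, 13.0 and 13.6 units. Wildtype animal 2 stood alone, and the sign of its log2 fold change, -0.13 with all animals, was positive at 0.46 without that animal.

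Usp genes, the largest family of deubiquitinases, held all 3 calls at an unadjusted limma p under 0.05. These were 3 of 18 tested Usp probes (16.7%), against 1006 of all 14759 tested probes (6.82%). A pair of the 3 probes read the same gene, Usp1, so the calls covered Usp1 and Usp20 only. Of the 14 tested genes 7 lay higher and 7 lower, at a median log2 fold change of 0.01. The spread was wider than in the core and cap, and 4 of the 14 had a 95% interval inside 0.5 on the log2 scale either way.

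Usp1, which removes ubiquitin from the DNA-repair proteins Fancd2 and Pcna, was higher in transgenic livers at a pair of its 3 probes. The brightest probe read 160.9, 156.3, 220.2 and 173.8 units in transgenic and 120.5, 155.3, 117.5 and 128.5 units in wildtype livers. The groups did not overlap, but transgenic animal 2 and wildtype animal 2 were 1.0 unit apart. The means were 178 ± 29.2 and 130 ± 17.2 units (SD, n = 4 each), a fold of 1.36 with a 95% interval of 1.09 to 1.70, and limma p-values of 0.0136 unadjusted and 0.608 adjusted. The second probe read 71.2, 81.2, 90.7 and 107.6 units against 62.2, 59.9, 68.4 and 54.2 units. Each transgenic animal was above each wildtype animal, with a fold of 1.42 (95% interval 1.14 to 1.78, limma unadjusted p = 0.00679, adjusted p = 0.582). The third probe, close to the floor, read 13.6 to 30.7 against 17.7 to 38.0 units and differed by -0.14 ± 0.29 (SE) on the log2 scale. In an exact permutation test over animals (two-sided), both brighter probes reached 0.0286, the lowest p of this design. Both kept an unadjusted p under 0.05 under every alternative that tested them, 18 and 17, with adjusted p of at least 0.310 and 0.400. The probes read 1 transcript and are not independent.

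Usp20, a deubiquitinase of the beta-2 adrenergic receptor and of Hif1a, was lower in transgenic livers. It read 335.1, 289.0, 314.2 and 327.3 units in transgenic and 378.2, 394.8, 349.1 and 341.5 units in wildtype livers. The groups did not overlap, with 6.4 units between transgenic animal 1 and wildtype animal 4. The means were 316 ± 20.2 and 366 ± 24.9 units (SD, n = 4 each), a fold of 0.865 (95% interval 0.759 to 0.985) with limma p-values of 0.0335 unadjusted and 0.698 adjusted. The unadjusted p was at or above 0.05 under 6 of 18 alternatives, at 0.0689 without transgenic animal 2, 0.0551 without wildtype animal 1, 0.0538 without wildtype animal 2, 0.0669 with array medians aligned, 0.0792 with a floor of 8 units and 0.0648 after normexp correction.

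**Figure D4:**
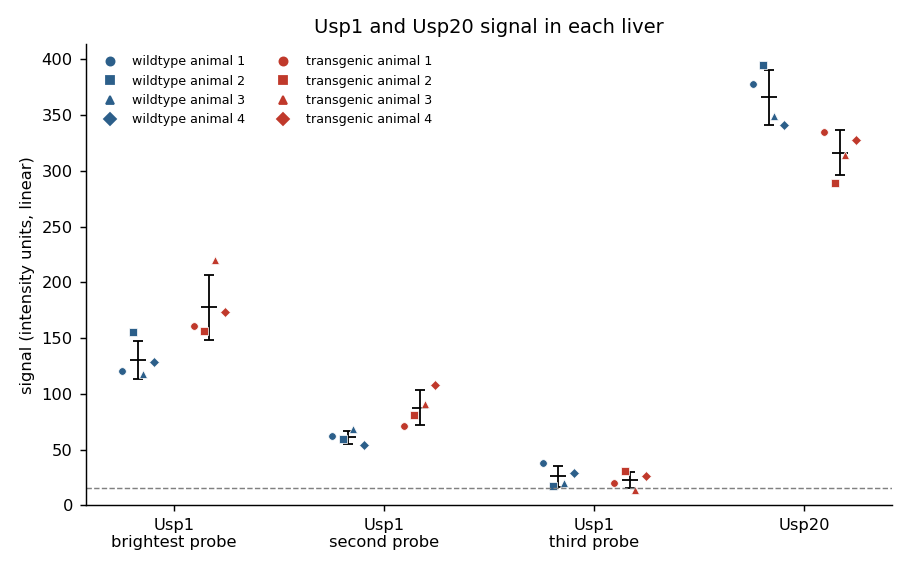
Signal in linear intensity units (vertical axis, from 0) of 3 Usp1 probes and the Usp20 probe in each of 8 livers, with black bars for the mean ± SD of 4 animals and a dashed line at the floor of 16 units. Transgenic points lie above wildtype points for the brightest and second Usp1 probes and below them for Usp20, and the third Usp1 probe overlaps.

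Other Usp genes overlapped between the groups. Usp39, a splicing factor without deubiquitinase activity and the brightest of the family, read 836, 736, 734 and 845 units in transgenic and 829, 829, 812 and 690 units in wildtype livers. Wildtype animal 4 was the lowest of all, and the log2 fold change was -0.003 (SE 0.09, limma adjusted p = 0.991). Usp36, a nucleolar deubiquitinase, had 157 to 179 against 123 to 178 units (0.19 ± 0.13 SE), and Usp10, which stabilises p53, had 250 to 378 against 260 to 416 units (-0.09 ± 0.18 SE). Usp32 and Usp42 differed by 0.24 ± 0.14 and -0.29 ± 0.16 (SE) with adjusted p of 0.781 in limma. Usp9x, a large deubiquitinase of many targets, had 3 dim probes that reached at most 30.8 units. Usp6nl, which carries the prefix but is a Rab GTPase-activating protein, differed by -0.13 ± 0.24 (SE).

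Of the Uch family only Uchl5, a deubiquitinase that binds the proteasome cap, was measured above the floor. It read 183.1, 247.8, 228.0 and 274.3 units in transgenic livers and 216.0, 244.6, 252.0 and 186.7 units in wildtype livers. The extremes were both transgenic, and the log2 fold change was 0.05 ± 0.15 (SE, limma adjusted p = 0.932). Uchl3 and Uchl4, near-identical genes that trim ubiquitin precursors, were at or below 16 units on all arrays.

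How far core and cap genes moved together between animals depended on which genes were taken. With group means removed, the median Pearson correlation over the 8 livers among all 15 tested core and cap genes was 0.06 (105 pairs, 55.2% positive). Among 5023 tested named genes it was 0.01 (51.0% positive). With a cut at 500 units, which was not planned, 12 core and cap genes gave 0.28 (66 pairs, 69.7% positive). Beside this, 1213 named genes of that brightness gave 0.06 (55.0% positive). All 23 genes of the set over 500 units, these 12 included, gave 0.24, and 7 Ube2 genes gave 0.16. The points share an array, so its scale enters every pair. Aligning array medians raised the value of the 12 genes to 0.64, and no background was computed for that setting. Without 1 animal at a time the value of the 12 genes ran from 0.21 to 0.37. The core and cap pairs with the highest values, chosen after they were seen, were Psma4 with Psmb3 (0.93), Psma2 with Psmd8 (0.86) and Psma2 with Psmb6 (0.85).

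Set by set, livers above and below the 8-liver mean occurred in both groups. The median log2 deviation of core and cap genes from their 8-liver means was 0.05, -0.001, -0.06 and -0.04 in transgenic animals 1 to 4 and 0.08, -0.06, -0.02 and 0.06 in wildtype animals 1 to 4. The range was 0.14, and the mean position was -0.01 in transgenic and 0.02 in wildtype livers. A range over 8 livers cannot be smaller than the difference of the group means, so it does not weigh animals against genotype. Conjugating enzymes spanned 0.22, from -0.10 in transgenic animal 2 to 0.12 in wildtype animal 1, with group means of -0.04 in transgenic and 0.02 in wildtype livers. Usp genes spanned 0.31, from -0.17 in wildtype animal 4 to 0.14 in transgenic animal 4, with group means of 0.002 and 0.007. All tested probes over 500 units spanned 0.07, but a median over 2894 bright probes varies less than a median over few and often dim genes.

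**Figure D5:**
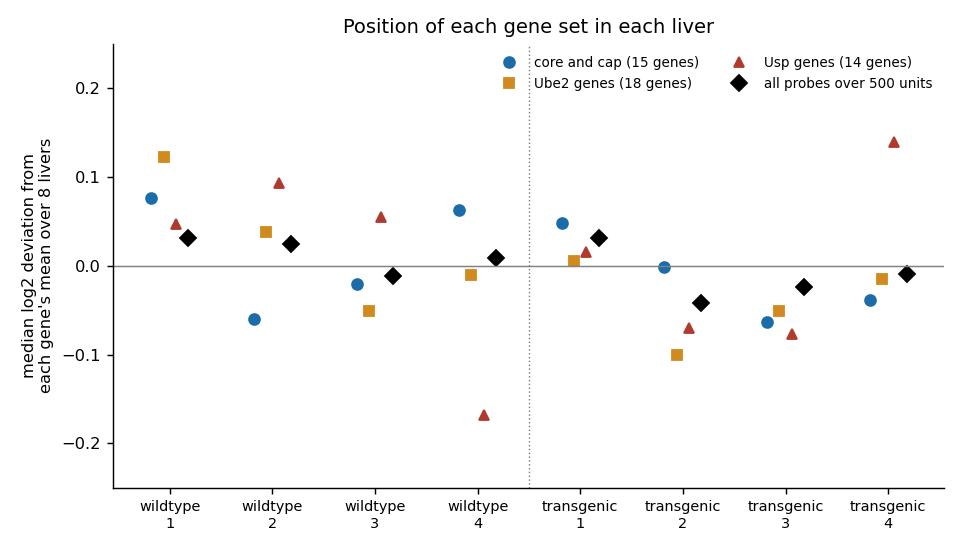
Median log2 deviation (vertical axis) of core and cap, Ube2 and Usp genes, and of all probes over 500 units, from their means over 8 livers, for each animal on the horizontal axis. High and low positions occur in both groups, and Usp genes have the widest range, from -0.17 in wildtype animal 4 to 0.14 in transgenic animal 4.

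The rest of the pathway, from a list of 94 ubiquitin genes outside the families above, gave a similar picture. Of these 44 had a probe and 40 were tested, with 16 higher and 24 lower (median log2 fold change -0.04), and none had an unadjusted p under 0.05 at its brightest probe in limma. Uba7, the activating enzyme for Isg15, read 172.6, 310.0, 189.8 and 233.9 units in transgenic and 284.4, 268.9, 299.0 and 333.9 units in wildtype livers. Only transgenic animal 2 reached the wildtype range (log2 fold change -0.42 ± 0.18 SE, limma unadjusted p = 0.0524, adjusted p = 0.735). The ligases Ubr2 and Ube4a differed by 0.18 and 0.35, and the deubiquitinase Otub2 by -0.49, with adjusted p of at least 0.781. Nfe2l1, the factor that raises proteasome genes when the proteasome is impaired, was at 2075 ± 136 and 2220 ± 112 units (SD, n = 4 each), differing by -0.10 on the log2 scale with an adjusted p of 0.809 in limma.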

How the data were processed

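The authors deposited 1 background-subtracted intensity per probe and array, with BeadStudio 1.5.1.3 per the submitters' processing notes. The background method and any scaling between arrays are not stated in the labels. Another deposited table of signals and detection values has 64 value columns whose names could not be tied to an animal, and it was not used.

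Numbers in 9523 probe identifiers were read as NCBI Gene IDs, and 8884 (93.3%) matched the RefSeq table of GRCm38.p6, against 45.6% to 48.6% for numbers shifted by 1 to 3. Intensities were floored at 16, taken to log2 and fitted with limma 3.58.1 in R 4.3.3 (lmFit, eBayes). Probes with a mean log2 value over the lower quartile, 4, were tested, with Benjamini-Hochberg adjustment over all 14759. Intervals are 95% limma intervals. The fit was tested on simulated data with known changes. Nothing but the variation among these animals, numbered in order of deposition, enters the p-values, and 4 arrays per group limit the precision.

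The members and lists were chosen with earlier results of these data known. Genes were named by the smallest p (2 per group), the brightest probe per group, the catalytic pairs and activators, the Uch genes, the 3 largest within-group SDs and, outside the families, the 4 smallest p. Other genes are given with values for completeness of their family, after those values were seen. Alternatives were other scalings, floors, filters and variance models, normexp correction, and leaving out each array. Some members and pathway genes are not reported here.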

Additional observations from a re-analysis of the deposited data

Results flagged for a closer look

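In 13 of 121 groups of 4 animals with a spread, Dixon's test at 95% flagged 1 animal. It was run on log2 values after flooring, and 10 of the 13 involve arrays at the floor. Where the other 3 animals are all at the floor, any value above it is flagged, however small the gap in units. The share flagged therefore cannot be compared with the 1 in 20 that chance would give. Of the 3 without floor arrays, transgenic animal 1 was highest for Psmb6 (5587.6 units, others 4821.0 to 4920.7) and Psmd8 (2652.3, others 2399.3 to 2411.6), and wildtype animal 4 was lowest for Usp39 (689.5, others 811.6 to 829.4). Near the floor, wildtype animal 2 was highest for Ube2e3 (82.8 units, others 13.0 to 16.8), Ube2v1 (24.5, others 6.3 to 15.6) and a dim Usp9x probe (16.4, others 3.9 to 10.6). Transgenic animal 4 was highest for Psme2 (68.7 units, others -1.9 to 9.6). Transgenic animal 1 was highest for Ube2g2 (27.0 units, others 8.8 to 15.9) and Usp11 (28.8, others 0.8 to 11.4), and transgenic animal 2 for another Usp9x probe (26.7, others -2.0 to 15.9). Among wildtype animals, animal 3 was highest for Usp11 (20 units, others -9.6 to 14.7), animal 1 for Ube2z (29.2, others 10.7 to 13.3) and animal 4 for Ube2j2 (18, others -4.2 to 14.5).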

How the results depend on the processing

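No ubiquitin or proteasome probe passed an adjusted p of 0.05 under any alternative run. Over all probes the adjusted calls, 0 as reported, were 1 after quantile normalization, cyclic loess, aligned array medians or a floor of 32, 2 after normexp or with trend and robust variance, and 0 to 1 without single animals. Unadjusted calls among the set ran from 2 to 7 without single animals, with 7 without wildtype animal 3. Over all probes they ran from 878 (5.95%) to 1364 (9.24%), with 1296 (8.78%) without wildtype animal 3. The median log2 fold change of cap non-ATPase genes, -0.06 as reported, was 0 with a floor of 32, -0.00137 after normexp, and -0.0707 to 0.0151 without single animals. The range of positions over livers was 0.160 for alpha-ring and 0.149 for conjugating genes after cyclic loess. With aligned array medians it was 0.318 for beta-ring, 0.324 for cap non-ATPase, 0.347 for activator, 0.118 for conjugating and 0.289 for core and cap genes. It was 0.111 for conjugating and 0.187 for Usp genes with a floor of 32, and 0.174 for Usp genes after normexp. The median correlation of core and cap genes was 0.0606 over all tested genes, the planned set. It was 0.279 over genes above 500 units, 0.640 for these with aligned medians, and 0.142 over genes above 16 on all arrays. Both cuts and the aligned setting of this correlation were not planned and were added after the data were seen. The causes were not tested.

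Of 29 probes of named genes, 14 changed sign under an alternative, 7 of them when all animals were kept. After quantile normalization the log2 fold changes were 0.0176 for Usp39, 0.0355 for Psme1, 0.00148 for Psmc1, 0.00530 for Psmb5 and 0.00533 for Psmb6. Cyclic loess gave 0.0130 for Usp39. Aligned medians gave 0.0261 for Usp39, 0.000273 for Psme1, 0.00928 for Psmc3 and 0.00884 for Psmb5, and a floor of 32 gave 0.0243 for the dim Ube2e1 probe. Without single animals the log2 fold change ran from -0.380 to 0.191 for the dim Ube2e1 probe, -0.333 to 0.457 for Ube2e3, -0.305 to 0.0626 for the third Usp1 probe, -0.0502 to 0.0501 for Ube2l3, -0.0383 to 0.159 for Uchl5 and -0.0671 to 0.0297 for Usp39. Among proteasome probes it ran from -0.115 to 0.0206 and -0.0146 to 0.0980 for Psme1, -0.0981 to 0.00759 for Psmc1, -0.0515 to 0.0160 for Psmc3, -0.0527 to 0.0734 for Psmd3, -0.0702 to 0.0315 for Psmb5, -0.0801 to 0.00491 for Psmb6 and -0.00639 to 0.140 for Psmb10. No paired analysis was possible because animals are numbered in order of deposition and the labels pair none across groups.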

Other observations

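Helpers of the proteasome that carry other gene names had no unadjusted limma p under 0.05 at their brightest probes. Of 7 tested assembly and accessory genes 3 were higher and 4 lower in transgenic livers, with a median log2 fold change of -0.01. Psmg1, which helps build the alpha ring, had 535 ± 32.6 units against 528 ± 9.69 (SD, n = 4 each), and Adrm1, the ubiquitin receptor that holds Uchl5 on the cap, had 915 ± 47.3 against 957 ± 70.4 units at its brighter probe. Psmf1, an inhibitor of the core, had 1885 ± 261 against 1766 ± 19.95 units, with a wider spread in transgenic livers. Vcp, the ATPase that pulls ubiquitinated proteins out of complexes and membranes, had 8242 ± 656 against 8896 ± 476 units (log2 fold change -0.11 ± 0.08 SE, limma adjusted p = 0.809). Ligases split evenly, with 8 of 15 tested genes higher and 7 lower.

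Sumo3, a ubiquitin-like modifier, was chosen after its values were seen. Its dimmer probe read 116.3, 128.0, 129.5 and 136.5 units in transgenic and 185.9, 167.5, 152.0 and 160.6 units in wildtype livers, without overlap (log2 fold change -0.38 ± 0.09 SE, limma unadjusted p = 0.00268, adjusted p = 0.509). Its brighter probe overlapped, with a log2 fold change of -0.08 ± 0.09 (SE).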
